A study of Mus musculus with 21 samples.

Results

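Cadherins hold neighbouring cells together. In adenomas of APCMin mice, 17 differentially methylated regions (DMRs) lay in the 4 cadherin genes Cdh1, Cdh4, Cdh13 and Pcdh17, out of 13980 DMRs listed for the whole genome. These 17 DMRs comprise 25 overlapping windows of 500 bp out of 17690 listed windows. Members are all deposited DMRs that overlap the mm9 body of a gene or the 1000 bp upstream of it. They were selected by the measured values themselves: the authors listed a window when a Wilcoxon test of adenoma against normal gave a p under 0.01, when the ratio of the lower to the higher group mean was below about 0.75, and when the mean of a group was above 0.25 rpm. The adenoma to normal difference at each DMR is therefore given as a description without a test. Of the 17 DMRs, 12 were hypomethylated in adenoma, 3 in Cdh1, 5 in Cdh4 and 4 in Cdh13, and 5 were hypermethylated, 1 in Cdh4, 3 in Cdh13 and 1 in Pcdh17.

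Methylation was measured by MeDIP-seq, in which sheared genomic DNA is precipitated with an antibody against 5-methylcytidine and sequenced. Values are in rpm, the mean coverage of a window by extended reads, scaled to the uniquely aligned reads of the library. The signal depends on the number of methylated CpG sites in a window as well as on their methylation, so rpm values of different DMRs are not methylation levels that can be ranked. All mice were C57BL/6J males aged 15 to 19 weeks, and all samples were excised from the ileum. The groups were normal ileum of wild type Apc-+/+ mice (B6 normal, 3 samples B1 to B3), normal ileum of Apc-Min/+ mice (APCMin normal, 3 samples N4 to N6) and ileal adenoma of Apc-Min/+ mice (5 samples Ad4, Ad4-1, Ad5, Ad6 and Ad7). Apc-Min/+ mice carry a germline truncating allele of Apc in every cell, so the APCMin normal tissue shares this allele with the adenomas. N4, Ad4 and Ad4-1 came from the same mouse, N5 and Ad5 from another and N6 and Ad6 from a further one, whereas Ad7 has no normal counterpart. Input DNA without precipitation was sequenced from 3 samples, B3, N4 and Ad7. The tissue identity of the samples was not checked here, as methylation of listed regions carries no cell type marker. Samples are bulk tissue, so that a change in the methylation of cells and a change in the share of a cell type cannot be told apart.

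The libraries held between 13878615 reads (Ad7) and 26297510 reads (N5) that aligned uniquely, and the input libraries between 3228908 and 5931425. A DMR value rested on 2.08 to 61.1 fragments in a sample, so that the SD from counting alone was 12.8% to 69.3% of the value, and depth limits what single samples can show at the weaker DMRs. The first number of the library code in each sample title is called the library series here, although the labels do not explain it. It takes 4 values, and whether it marks a batch is not known. Series 4 alone holds both kinds of tissue in more than 1 sample each, with the normal samples B1, B2 and N4 and the adenomas Ad4 and Ad4-1. Values within series 4 are given beside the pooled ones.

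Classical cadherins are transmembrane proteins that bind each other between neighbouring cells and reach through catenins to the actin cytoskeleton. Cdh1 encodes E-cadherin, the main cadherin of epithelial adherens junctions, whose cytoplasmic tail binds beta-catenin, the protein that Apc helps to degrade. Cdh4 encodes R-cadherin, a classical cadherin first known from the retina. Cdh13 encodes T-cadherin, which is attached to the membrane by a lipid anchor and lacks a cytoplasmic tail. Pcdh17 encodes a protocadherin of the non-clustered kind, known from the nervous system. Promoter methylation of CDH1, CDH13, CDH4 and PCDH17 is known from human tumours. DNA methylation occurs at CpG sites, and many gene promoters lie in CpG islands, stretches rich in CpG that are normally unmethylated.

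All 4 genes lie on the plus strand. In the GENCODE annotation of mm9, Cdh1 spans chr8:109127251-109194146, Cdh4 chr2:179177136-179634078, Cdh13 chr8:120807633-121848821 and Pcdh17 chr14:84843370-84936867. DMRs are named below by the distance of their start from the start of the gene. No listed DMR overlapped the promoter of any of the 4 genes, taken from 1000 bp upstream to 500 bp downstream of the gene start. Each of these promoters met the criteria of a CpG island, and the promoters held 73 CpG sites in Cdh1, 114 in Cdh4, 60 in Cdh13 and 74 in Pcdh17. Windows that were not listed were not analysed here, so the methylation of the promoters themselves is not known from these values. From reads counted over whole promoters, the study itself names Cdh4 and Pcdh17 among genes with promoter hypermethylation in mouse adenoma and human colon cancer alike. Among the members, the nearest DMR to a gene start was 3.13 kb downstream in Pcdh17, 15.2 kb in Cdh1, 31.6 kb in Cdh4 and 139 kb in Cdh13. A listed DMR outside the set, upstream of Cdh1 and starting at chr8:109121751, lay closer to the Cdh1 start than its members. Of the 17 DMRs, 16 lay within introns in every annotated transcript that spans them, and the DMR of Pcdh17 overlapped exon 1, which is coding. Members overlap a gene or its upstream 1000 bp by definition, and the share over all listed DMRs was not taken. Nothing is therefore read from the count of 16.

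The Pcdh17 DMR was the richest in CpG sites of the 17. Sequences are printed below for the Pcdh17 DMR, the Cdh1 member nearest to the gene start and the Cdh13 DMRs with the most CpG sites in each direction. They are the 300 bases with the most CpG sites, from the plus strand of mm9, with CpG sites in capitals.

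Pcdh17 +3.13 kb (chr14:84846729-84847028): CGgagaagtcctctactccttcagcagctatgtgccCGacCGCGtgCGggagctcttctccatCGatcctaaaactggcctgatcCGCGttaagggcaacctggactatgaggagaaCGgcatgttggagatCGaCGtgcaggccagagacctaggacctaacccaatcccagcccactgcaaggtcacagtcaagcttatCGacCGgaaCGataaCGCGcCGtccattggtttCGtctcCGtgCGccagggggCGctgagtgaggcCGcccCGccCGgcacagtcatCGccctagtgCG

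Cdh1 +15.2 kb (chr8:109142541-109142840): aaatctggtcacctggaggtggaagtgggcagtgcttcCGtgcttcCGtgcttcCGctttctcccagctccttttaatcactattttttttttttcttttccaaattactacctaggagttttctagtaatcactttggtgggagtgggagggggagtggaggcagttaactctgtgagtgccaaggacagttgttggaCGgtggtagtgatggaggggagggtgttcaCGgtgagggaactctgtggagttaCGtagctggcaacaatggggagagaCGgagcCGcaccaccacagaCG

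Cdh13 +139 kb (chr8:120946620-120946919): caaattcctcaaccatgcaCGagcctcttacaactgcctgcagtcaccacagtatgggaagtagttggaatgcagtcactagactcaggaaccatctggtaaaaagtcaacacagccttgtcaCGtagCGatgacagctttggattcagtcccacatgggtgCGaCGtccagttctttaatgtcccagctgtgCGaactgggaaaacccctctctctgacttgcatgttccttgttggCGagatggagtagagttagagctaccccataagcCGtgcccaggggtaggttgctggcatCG

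Cdh13 +548 kb (chr8:121355623-121355922): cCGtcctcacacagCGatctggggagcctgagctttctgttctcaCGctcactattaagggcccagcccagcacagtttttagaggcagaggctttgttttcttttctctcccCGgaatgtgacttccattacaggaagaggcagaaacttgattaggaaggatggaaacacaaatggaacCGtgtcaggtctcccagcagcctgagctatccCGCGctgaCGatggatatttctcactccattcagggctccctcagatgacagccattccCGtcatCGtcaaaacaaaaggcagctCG

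The Pcdh17 stretch holds 26 CpG sites, against 9 in the Cdh1 stretch, 9 in the hypomethylated Cdh13 stretch and 11 in the hypermethylated one. Over whole DMRs, the Pcdh17 DMR held 97 CpG sites in 1500 bp, or 6.47 per 100 bp, a density above that of 98.4% of all hypermethylated DMRs. The other 16 members held between 0.8 and 2.6 CpG sites per 100 bp. The median over all listed DMRs was 1.4 per 100 bp for hypermethylated and 1.6 for hypomethylated ones. The Pcdh17 DMR was the only member in a CpG island, here a stretch of 300 bp with 50% GC or more in which CpG sites occurred at no less than 0.6 of the number its base composition predicts, and it was also the only one under limits of 500 bp, 55% GC and 0.65. Over all DMRs, 14.5% of the hypermethylated and 9.70% of the hypomethylated ones touched such an island.

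**Figure D1:**
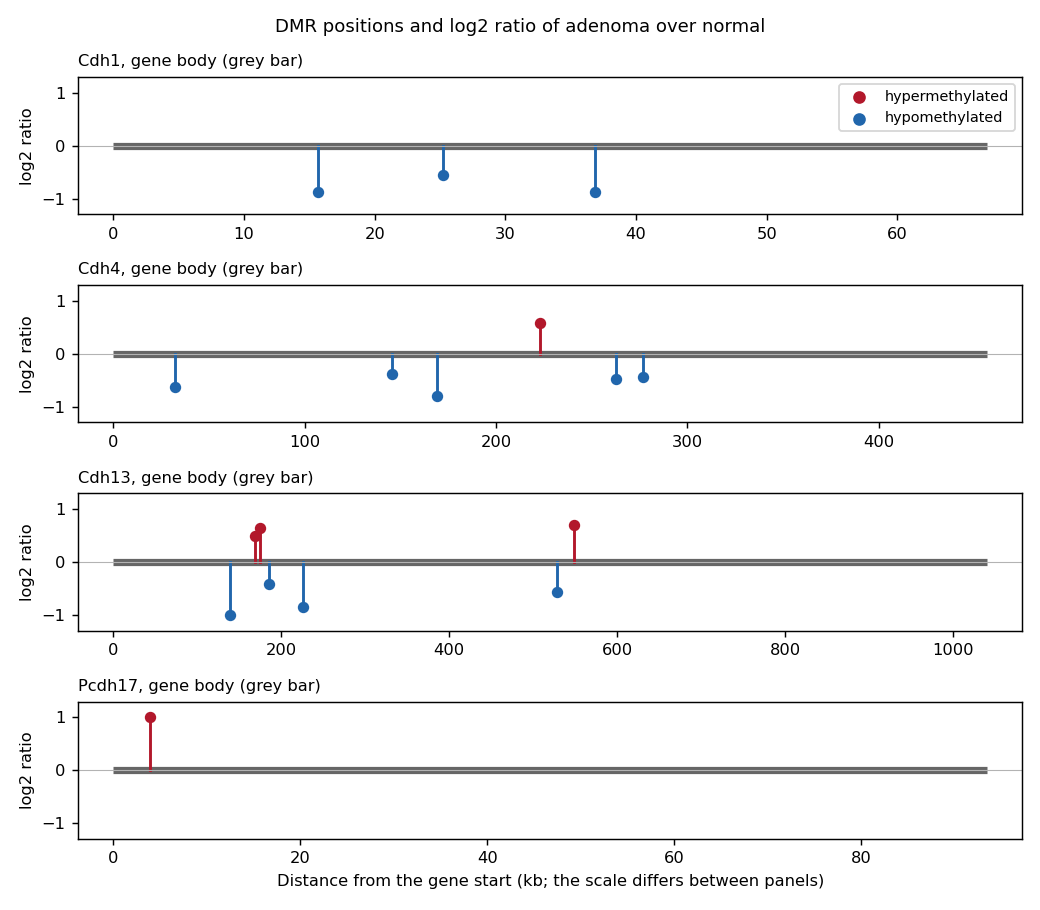
Position of each DMR along its gene (horizontal axis, kb from the gene start, a separate scale in each panel) and log2 ratio of adenoma over normal (vertical axis), with hypermethylated DMRs in red and hypomethylated DMRs in blue. Cdh1 holds 3 hypomethylated DMRs between 15.2 and 36.5 kb, Cdh4 and Cdh13 hold DMRs of both directions, and Pcdh17 holds 1 hypermethylated DMR close to its start.

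Pcdh17 was hypermethylated in adenoma over a stretch that overlaps coding exon 1. The DMR spans chr14:84846501-84848000 and consists of 5 overlapping windows. At 1500 bp it was as long as the longest hypermethylated DMRs of the genome, of which 6 in 5135 reached this length. The signal was 0.24, 0.43 and 0.27 rpm in B1, B2 and B3, and 0.22, 0.17 and 0.25 rpm in N4, N5 and N6. In the adenomas it was 0.50 rpm in Ad4, 0.59 in Ad4-1, 0.63 in Ad5, 0.51 in Ad6 and 0.65 in Ad7. Every adenoma lay above every normal sample, and B2 was the normal sample closest to the adenomas. The mean was 0.263 ± 0.0885 rpm in normal tissue (SD, n = 6) and 0.576 ± 0.0684 rpm in adenoma (SD, n = 5), a ratio of 2.19, or 1.00 on the log2 scale after adding 0.05 rpm. This log2 ratio exceeded that of 97.5% of the hypermethylated DMRs. These values rested on 19.9 to 46 fragments in a normal and 45.1 to 58.0 in an adenoma sample. Within library series 4 the log2 ratio was 0.78, with means of 0.545 and 0.297 rpm.

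The 5 windows of the Pcdh17 DMR did not carry the same signal. The adenoma mean was 0.688 ± 0.134 rpm in the window nearest to the gene start, 0.776 ± 0.0555 in the next, then 0.592 ± 0.0522, 0.452 ± 0.12 and 0.334 ± 0.145 (SD, n = 5). The normal mean was 0.282 ± 0.123, 0.292 ± 0.138, 0.260 ± 0.1, 0.248 ± 0.048 and 0.138 ± 0.062 rpm in the same order (SD, n = 6). The means were thus lowest at the 3′ end in both tissues, while each window held between 27 and 36 CpG sites. In the 2 windows farthest from the gene start Ad7 stood above the other adenomas, with 0.65 and 0.58 rpm against at most 0.45 and 0.35 rpm.

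**Figure D2:**
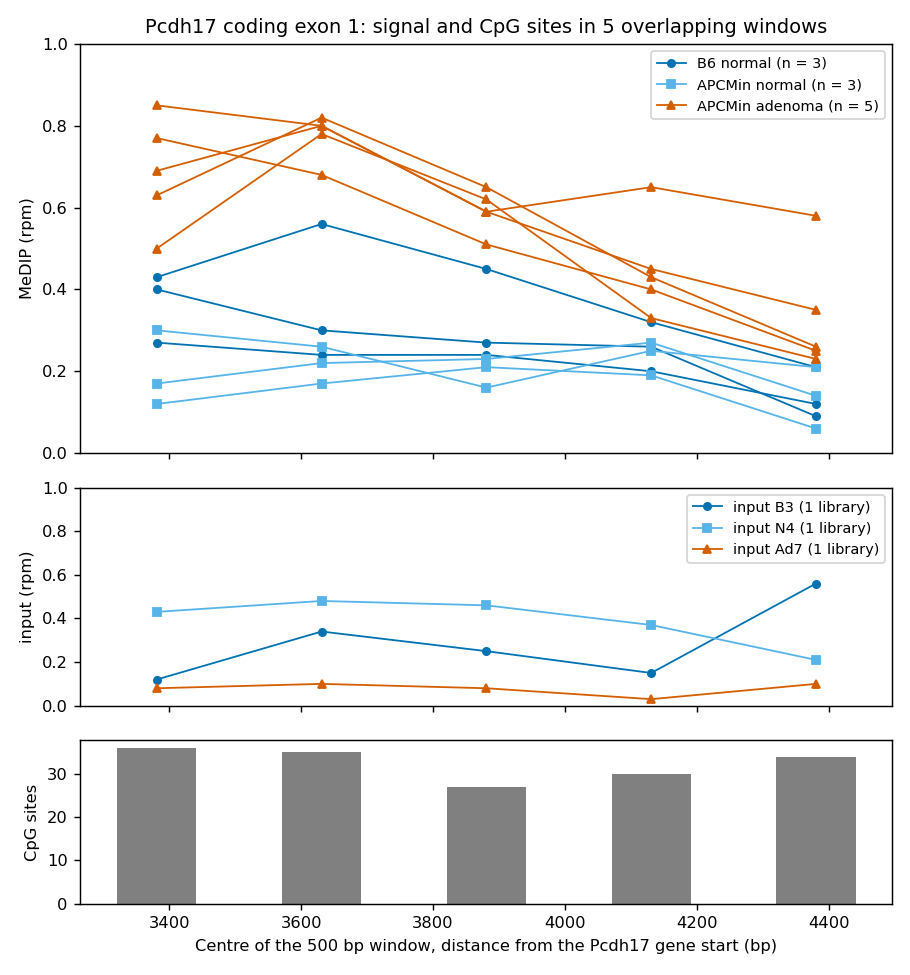
MeDIP signal in rpm of each sample (top), input signal of 3 libraries (middle) and number of CpG sites (bottom) in the 5 overlapping 500 bp windows of the Pcdh17 DMR, by the distance of the window centre from the gene start in bp. The adenoma lines lie above the normal lines in every window, and in 4 of the 5 windows the input of N4 lies above that of Ad7 and B3.

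Cdh1 was hypomethylated in adenoma at 3 places, all in intron 2 of the transcript ENSMUST00000000312. The DMR at +15.2 kb (chr8:109142501-109143250) gave 0.30, 0.42 and 0.54 rpm in B1, B2 and B3, and 0.37, 0.43 and 0.52 rpm in N4, N5 and N6. The adenomas gave 0.13 rpm in Ad4, 0.17 in Ad4-1, 0.25 in Ad5, 0.17 in Ad6 and 0.33 in Ad7. The groups overlapped here, because Ad7 lay above B1. The mean was 0.430 ± 0.0903 rpm in normal and 0.210 ± 0.0800 rpm in adenoma samples, a log2 ratio of -0.88.

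The DMR of Cdh1 at +25 kb (chr8:109152251-109152750) carried the highest signal of the gene. It gave 0.90, 0.82 and 0.71 rpm in B6 normal and 0.71, 0.75 and 0.77 rpm in APCMin normal samples. The adenomas gave 0.69, 0.58, 0.28, 0.52 and 0.51 rpm in the order Ad4, Ad4-1, Ad5, Ad6 and Ad7. All adenomas lay below all normal samples, yet Ad4 was within 0.02 rpm of B3 and N4, and Ad5 was far below the other adenomas. The mean was 0.777 ± 0.0731 rpm against 0.516 ± 0.150 rpm, a log2 ratio of -0.55, and it was -0.33 within library series 4. The value of Ad5 rested on 8.59 fragments, the fewest of the 11 samples.

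The DMR of Cdh1 at +36.5 kb (chr8:109163751-109164500) was weak in all samples. The normal samples gave 0.26, 0.33 and 0.20 rpm (B6) and 0.18, 0.39 and 0.32 rpm (APCMin), and the adenomas 0.13, 0.05, 0.13, 0.19 and 0.15 rpm. The groups overlapped, as Ad6 lay above N4. The mean was 0.280 ± 0.0812 rpm against 0.130 ± 0.0510 rpm, a log2 ratio of -0.87, and Ad4-1 rested on 2.16 fragments. The 3 DMRs of Cdh1 were separated by 9 and 11 kb. The log2 ratios within library series 4 were -1.05 at +15.2 kb and -1.13 at +36.5 kb, where these 5 samples did not overlap. Groups of fewer samples overlap less often by construction.

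Cdh4 held hypomethylated DMRs on both sides of a hypermethylated one, all 6 in intron 2. The highest mean signal of any member was found at +263 kb (chr2:179439751-179440250), with 1.06, 1.14 and 0.80 rpm in B6 normal and 1.01, 1.08 and 0.98 rpm in APCMin normal samples. The adenomas gave 0.69 rpm in Ad4, 0.96 in Ad4-1, 0.65 in Ad5, 0.61 in Ad6 and 0.66 in Ad7. Ad4-1 stood apart from the other adenomas and lay above B3, so the groups overlapped in that sample alone. The mean was 1.01 ± 0.118 rpm against 0.714 ± 0.140 rpm, a log2 ratio of -0.47, and adenoma thus kept most of the signal. Without Ad4-1 the log2 ratio was -0.60, and within library series 4 it was -0.36. This DMR had no input reads in any of the 3 input libraries.

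The other hypomethylated DMRs of Cdh4 lay at +31.6, +145, +169 and +276 kb. Their normal means ranged from 0.280 to 0.583 rpm and their adenoma means from 0.144 to 0.362 rpm, with log2 ratios from -0.80 at +169 kb to -0.39 at +145 kb. The first 3 of these separated the groups completely, and at +276 kb Ad4-1 and B2 were both at 0.30 rpm. Within library series 4 the log2 ratios were -0.66 at +31.6 kb, -0.37 at +145 kb, -0.58 at +169 kb and -0.26 at +276 kb, the latter against -0.45 over all samples. The hypermethylated DMR at +223 kb, 53.0 kb downstream of one hypomethylated DMR and 39.5 kb upstream of another, had means of 0.302 ± 0.0467 rpm in normal and 0.480 ± 0.117 rpm in adenoma samples, a log2 ratio of 0.59 that was 0.77 within library series 4. Ad4-1 was the highest sample there with 0.67 rpm, and Ad5, with 0.36 rpm, was within 0.01 rpm of B3 and N4.

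Cdh13 held DMRs of both directions in close neighbourhood. Its 1041 kb contained 4 hypomethylated DMRs, at +139, +185, +226 and +528 kb, and 3 hypermethylated DMRs, at +168, +175 and +548 kb. The first 5 along the gene lay within less than 100 kb, with both hypermethylated DMRs flanked by hypomethylated ones: the gaps were 28.5 kb between +139 and +168 kb, 6 kb to +175 kb, 9.75 kb to +185 kb and 40.3 kb to +226 kb. The last pair, at +528 and +548 kb, was separated by 19.0 kb and also went in opposite directions. Of the 7 DMRs, 4 lay in intron 1, 1 in intron 2 and 2 in intron 4 of the transcript ENSMUST00000117160.

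The hypermethylated DMR of Cdh13 at +168 kb (chr8:120975751-120976250) gave 0.50, 0.35 and 0.33 rpm in B6 normal and 0.35, 0.53 and 0.53 rpm in APCMin normal samples. The adenomas gave 0.68 rpm in Ad4 and Ad4-1, 0.62 in Ad5, 0.60 in Ad6 and 0.54 in Ad7. The groups did not overlap, but Ad7 was within 0.01 rpm of N5 and N6. The mean was 0.432 ± 0.0977 rpm in normal and 0.624 ± 0.0590 rpm in adenoma samples, a log2 ratio of 0.48, and this ratio was 0.70 within library series 4.

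The hypomethylated DMR of Cdh13 at +185 kb (chr8:120992501-120993000) gave 0.37, 0.31 and 0.31 rpm in B6 normal and 0.31, 0.29 and 0.36 rpm in APCMin normal samples. The adenomas gave 0.28, 0.25, 0.25 and 0.28 rpm in Ad4, Ad4-1, Ad5 and Ad6, and 0.09 rpm in Ad7. The first 4 adenomas were close to the normal samples, whereas Ad7 was far lower on the basis of 2.08 fragments. The mean was 0.325 ± 0.0321 rpm against 0.230 ± 0.0797 rpm, a log2 ratio of -0.42. Without Ad7 it was -0.25, and within library series 4 it was -0.27.

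The hypermethylated DMR of Cdh13 at +548 kb (chr8:121355501-121356000) was the weakest in normal tissue. It gave 0.14, 0.20 and 0.18 rpm in B6 normal, 0.18, 0.05 and 0.09 rpm in APCMin normal, and 0.31, 0.28, 0.23, 0.22 and 0.25 rpm in the adenomas. The groups did not overlap, and N5 and N6 were the lowest samples. The mean was 0.140 ± 0.0590 rpm in normal and 0.258 ± 0.0370 rpm in adenoma samples, a log2 ratio of 0.70, and the ratio was 0.63 within library series 4. The 3 input libraries gave 0.25, 0.41 and 0.39 rpm at the same place, so that each input library was at or above the MeDIP signal of every sample other than Ad4 and Ad4-1. The remaining 4 DMRs of Cdh13 had log2 ratios of -1.01 at +139 kb, 0.64 at +175 kb, -0.86 at +226 kb and -0.57 at +528 kb. Within library series 4 these were -0.79, 0.76, -0.70 and -0.38 in the same order. At +139 kb the normal mean was 0.853 ± 0.221 rpm and the adenoma mean 0.40 ± 0.0972 rpm, and at +175 kb N5 and Ad6 were both at 0.30 rpm.

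**Figure D3:**
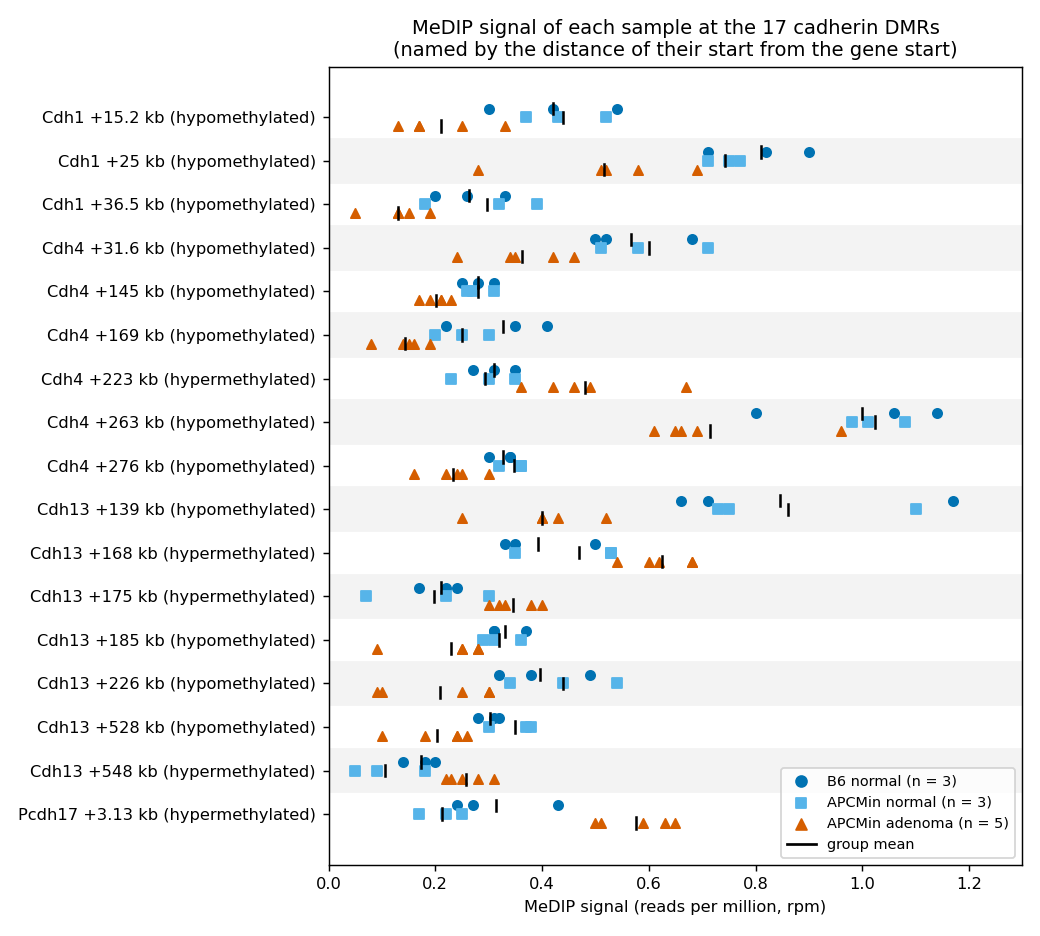
MeDIP signal in rpm (horizontal axis) of each sample at the 17 DMRs, which are named by gene and distance from the gene start, with circles for B6 normal (n = 3), squares for APCMin normal (n = 3), triangles for adenoma (n = 5) and black ticks for group means. Adenomas lie on 1 side of all normal samples in 12 DMRs, and the signal in normal tissue ranges from a mean of 0.140 rpm at Cdh13 +548 kb to 1.01 rpm at Cdh4 +263 kb.

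Over the 17 DMRs, all adenomas lay beyond all normal samples in 4 of 5 hypermethylated and 8 of 12 hypomethylated members. The share over all listed DMRs was 44.5% for hypermethylated and 51.9% for hypomethylated ones. The listing itself used these values, so nothing is read from the members' counts. The 5 members with overlap were Cdh1 +15.2 kb, Cdh1 +36.5 kb, Cdh4 +263 kb, Cdh4 +276 kb and Cdh13 +175 kb, and in each of them 4 of the 5 adenomas lay beyond all normal samples. The median absolute log2 ratio of the members was 0.64 for hypermethylated (0.55 over all listed) and 0.59 for hypomethylated ones (0.64 over all listed). The values closest to the limits of the listing were a ratio of 0.721 at Cdh4 +145 kb, just under the limit of 0.75, and a mean of 0.258 rpm in the higher group at Cdh13 +548 kb, just above 0.25 rpm. Windows on the other side of these limits were not analysed here. The gene limits include the 1000 bp upstream of the gene start. Beyond these limits, the nearest listed DMR was hypomethylated and 4.00 kb upstream of the Cdh1 limit (0.260 rpm in normal and 0.130 rpm in adenoma samples), whereas it was at least 119 kb away for the other genes.

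Adenomas were also compared with the normal tissue of the same mouse, a comparison that shares all its samples with the listing. Each of the 17 DMRs went in its listed direction in each of the 4 pairs, in 68 of 68 differences. In 12 of these DMRs all adenomas lay beyond all normal samples, which fixed the direction of every pair in advance. The listing favoured the same direction in the others, and Ad4 and Ad4-1 share N4, so nothing is read from this count. The size varied between pairs: at Pcdh17 the differences of log2(rpm + 0.05) were 1.03 for Ad4, 1.25 for Ad4-1, 1.63 for Ad5 and 0.90 for Ad6. At Cdh1 +25 kb they were -0.04, -0.27, -1.28 and -0.52 in the same order, so that Ad4 hardly differed from its own normal tissue. At Cdh4 +263 kb they were -0.52, -0.07, -0.69 and -0.64. Ad4 and Ad4-1 are 2 adenomas of the same mouse, and they differed from each other by 1.32 on the log2 scale at Cdh13 +226 kb, 0.93 at Cdh13 +139 kb and 0.85 at Cdh1 +36.5 kb, in each case with the lower value in Ad4-1, but by 0.00 at Cdh13 +168 kb. With the mouse as a replicate block, the log2 difference was 1.21 at Pcdh17 and -0.60 at Cdh1 +25 kb.

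**Figure D4:**
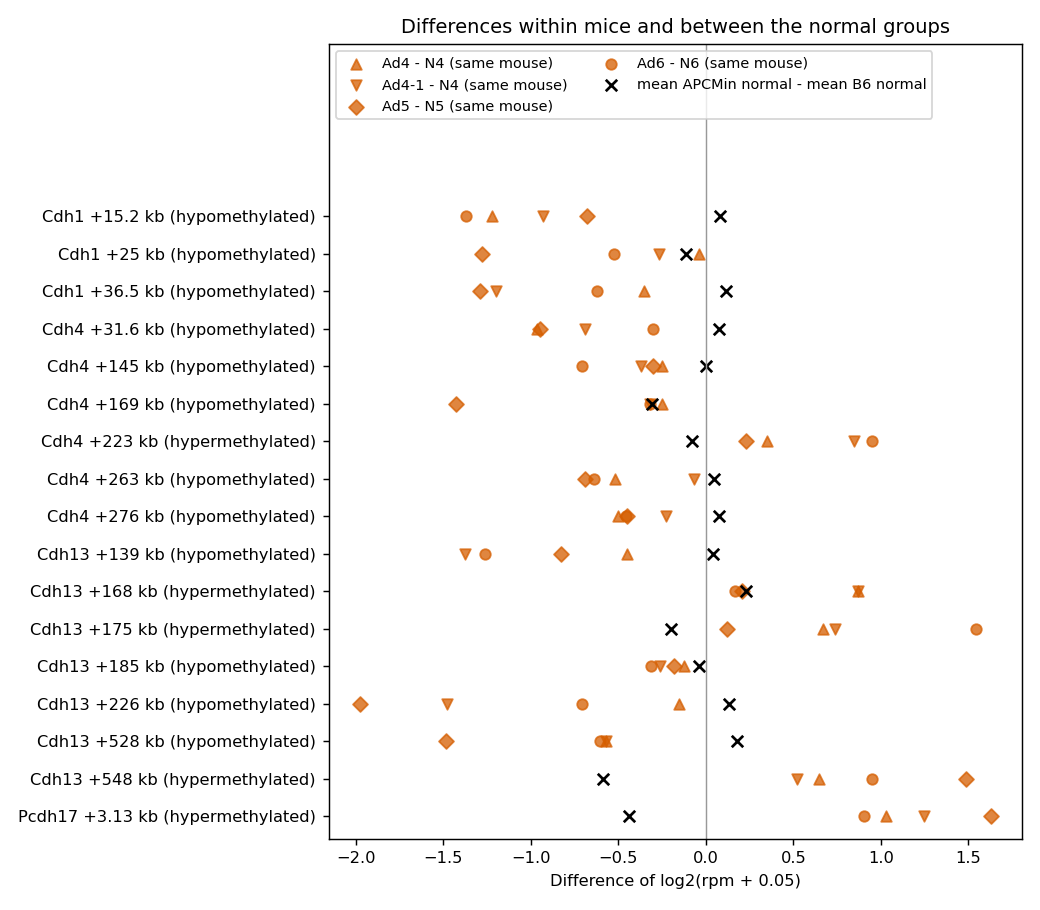
Difference of log2(rpm + 0.05) between an adenoma and the normal sample of the same mouse (orange symbols, 4 pairs) and between the means of APCMin normal and B6 normal samples (crosses) at the 17 DMRs. The 68 paired differences all lie on the listed side of 0, while the crosses scatter from -0.59 to 0.23. The listing used the same samples as the pairs, so nothing is read from their side.

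The normal tissues of APCMin and B6 mice were then compared. The mice of the 2 groups differ in the Apc-Min allele and also in tumour growth, since N4, N5 and N6 came from mice that bore adenomas. They differ in library series as well, with B1, B2 and N4 in series 4, B3 in series 10, and N5 and N6 in series 9. This contrast was not itself used to list the DMRs, but the listing set both normal groups together against the adenomas. A window where either normal group lay close to the adenomas was therefore less likely to be listed. A low number of calls is thus partly built in, and it does not show that the normal tissues are alike. In the limma fit over all 17690 listed windows, 0 windows (0%) had a Benjamini-Hochberg adjusted p under 0.05, and 729 (4.12%) had an unadjusted p under 0.05. Of the 25 member windows, 4 had an unadjusted p under 0.05, and the smallest limma adjusted p of a member window was 0.9997. These 4 were 3 overlapping windows of the Pcdh17 DMR and the window of Cdh13 +548 kb, and in all of them the signal was lower in APCMin normal tissue. The count of 4 was 1 without B2, and it was 2 without N5 and 2 without N6. In the Pcdh17 window nearest to the gene start the log2 difference was -0.80 (SE 0.255, limma, unadjusted p = 0.00508, adjusted p = 0.9997). Over the whole Pcdh17 DMR, B6 normal gave 0.313 ± 0.102 rpm and APCMin normal 0.213 ± 0.0404 rpm (SD, n = 3 each), a difference of -0.44 on the log2 scale with p = 0.2 in an exact two-sided permutation test. B2 was the highest of these samples, and without it the difference was -0.22. Within library series 4 it was -0.47, from N4 alone (0.22 rpm) against B1 (0.24 rpm) and the same B2 (0.43 rpm). At Cdh13 +548 kb the means were 0.173 ± 0.0306 and 0.107 ± 0.0666 rpm, a difference of -0.59 with an exact permutation p of 0.3. Here N4 lay between B1 and B2, which are in the same library series, with a difference of 0.08 within it. The low values were those of N5 and N6, both in series 9, so that genotype and library series cannot be told apart at this DMR. For 3 against 3 samples the smallest p possible is 0.1, and none of the 17 exact tests reached it; the smallest was 0.2. The log2 difference was above 0 at 10 DMRs and below 0 at 7. The Pcdh17 log2 ratio of adenoma was 0.78 relative to B6 normal alone and 1.25 relative to APCMin normal alone; both share the adenoma samples.

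Input DNA was uneven at the members and was low in read number, since 1 fragment in a window was worth up to 0.186 rpm. Of the 17 DMRs, 11 had an input library at or above the lower of the 2 group means and 4 had one at or above the higher mean. The same shares were not taken over all listed DMRs, so these counts are not read as a trait of the members. At Pcdh17 the input was 0.25 rpm in B3, 0.43 in N4 and 0.08 in Ad7, or 4.04, 11.1 and 2.37 fragments. At Cdh1 +15.2 kb it was 0.09, 0.18 and 0.05 rpm. At Cdh4 +169 kb it was 0.37, 0.25 and 0.51 rpm, above the adenoma MeDIP mean of 0.144 rpm. Between Ad7 and N4, input differed in the listed direction at 7 of the 12 hypomethylated members and in the opposite direction at 4, and 1 had no input reads. At the hypermethylated members it differed in the listed direction at 2 of 5, Cdh4 +223 kb and Cdh13 +168 kb, and in the opposite direction at 3. Over all listed DMRs, input differed in the listed direction at 49.0% of the hypomethylated and 46.9% of the hypermethylated ones. The input summed over the 17 DMRs was 0.841 times as high in Ad7 as in N4. With 1 adenoma input library the part of input in these differences was not tested.

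DMRs were counted in the wider cadherin and junction family, to set the 4 genes beside their relatives. Of 76 cadherin, catenin and plaque genes found in the annotation, 16 held a hypermethylated and 27 a hypomethylated DMR in the body or the 1000 bp upstream. Over all 22380 protein-coding genes these shares were 11.1% and 14.2%, but the family genes are long, with a median of 59.2 kb against 15.4 kb. Per 100 kb of gene, the family held 0.139 hypermethylated and 0.291 hypomethylated DMRs, against 0.317 and 0.495 over all protein-coding genes. Density was itself lower in long genes, with 0.331 and 0.591 at 50 to 100 kb but 0.150 and 0.267 over 400 kb. Family genes reach 1574 kb, so nothing is read from the lower density of the family. Of 2440 protein-coding genes of 50 to 100 kb, 454 held a hypermethylated and 684 a hypomethylated DMR. The family counts include the 4 genes described here. Of the other 72 genes, 13 held a hypermethylated and 24 a hypomethylated DMR, or 0.12 and 0.24 DMRs per 100 kb. Most hypermethylated DMRs of the family were in Cdh13 with 3, then in Ctnnd2, a catenin, and in Pcdh1, a protocadherin, with 2 each, 2 also being found in Cdh23 and Ctnna2. Most hypomethylated DMRs were in Cdh4 with 5, then in Cdh13 and Cdh23, the latter a cadherin of sensory hair cells, with 4 each, and Fat1, a giant cadherin, also had 4. The 19 classical cadherins held 4 hypermethylated and 16 hypomethylated DMRs, the 20 other cadherins 10 and 22, the 12 non-clustered protocadherins 3 and 2, the 16 catenins and plaque genes 5 and 6, and the 9 desmosomal cadherins none.

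Relative to its length, Cdh1 was the densest of the 4 genes, with 4.48 hypomethylated DMRs per 100 kb. Cdh4 held 1.09 and Cdh13 0.384 hypomethylated DMRs per 100 kb, and Pcdh17 1.07 hypermethylated DMRs per 100 kb. Protein-coding genes of 50 to 100 kb, the size class of Cdh1 and Pcdh17, held 0.331 hypermethylated and 0.591 hypomethylated DMRs per 100 kb, and those over 400 kb, as Cdh4 and Cdh13, 0.150 and 0.267. The 4 genes were chosen with their DMRs known, whereas these classes include genes with none, 1453 of 2440 and 78 of 322. A density above the class mean is therefore partly built in, and nothing is read from it. Of the protein-coding genes over 400 kb, 123 of 322 held DMRs of both directions, as Cdh4 and Cdh13 did. The promoter itself was hit in 4 family genes, Cdh7 by a hypermethylated and Cdhr2, Clstn1 and Dsp by hypomethylated DMRs, and in none of the 4 cadherins described here. Over all protein-coding genes the share with a promoter DMR was 0.818% for hypermethylated and 0.746% for hypomethylated ones, so that nothing is read from its absence in 4 genes.

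**Figure D5:**
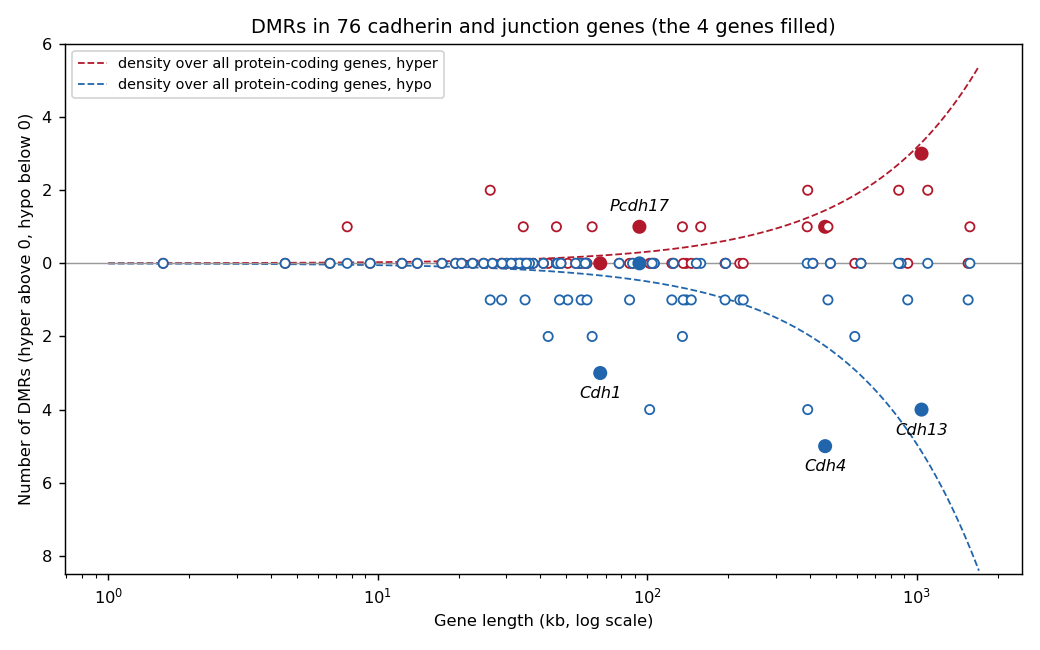
Number of hypermethylated DMRs (above 0) and hypomethylated DMRs (below 0) of 76 cadherin and junction genes by gene length in kb on a log scale, with filled symbols for Cdh1, Cdh4, Cdh13 and Pcdh17 and dashed lines for the mean density over all protein-coding genes. Cdh1 with 3 and Cdh4 with 5 hypomethylated DMRs lie beyond the dashed line for their length, and Cdh13 lies close to it.

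The DMRs elsewhere whose sample to sample pattern was most like that of a member, once group means were removed, were sought for the member with the most CpG sites of each gene. The first along the gene was taken where several were tied, as 2 were in Cdh1 with 14 sites and 3 in Cdh4 with 12. For Pcdh17 they lay in Tnfrsf19 (Pearson r = 0.94), Ipo4 (0.92) and Camk2g (0.92), all on chromosome 14. For Cdh13 +548 kb they lay in Atp5c1 (0.94), in no gene (0.92) and in Slit1 (0.91), for Cdh1 +15.2 kb in Gm20388 (0.92), in Wdr96 (0.92) and in no gene (0.92), and for Cdh4 +31.6 kb in 3110002H16Rik (0.92) and at 2 places in no gene (both 0.90). The values are over 11 samples and were the highest of 13980 DMRs each, so they are given as a description only.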

How the data were processed

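MeDIP-seq of 11 samples and 3 input libraries was analysed. The authors aligned reads to mm9 with Bowtie 0.12.5, kept unique alignments and deposited rpm values (mean coverage by reads extended to 300 bp, scaled to uniquely aligned reads) of 500 bp windows at a step of 250 bp, only for windows passing their own selection. In 470 of 470 merged DMRs with at least 3 windows, the deposited rpm was the median of its windows within 0.01 rpm. Columns with the authors' ratios, means and Wilcoxon p-values were not used, and RNA of the genes is not reported here. Read totals came from the study's sequencing statistics.

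Members, gene lists and tests were chosen with earlier results of these data known. DMRs were assigned by overlap with GENCODE vM1 gene bodies plus 1000 bp upstream. Log2 ratios compare group means after adding 0.05 rpm. APCMin normal was compared with B6 normal by limma 3.58.1 (R 4.3.3) on log2(rpm + 0.05), with all 11 samples in a fit of 3 groups and Benjamini-Hochberg adjustment over 17690 windows, checked on simulated data, and by exact permutation per DMR. The simulated windows all had the same spread, unlike the real ones, so the check does not show which differences the fit would miss. The limma fit had no term for the mouse, and its spread came from all 3 groups, the adenomas included. With the 6 normal samples only it also called 0 windows. Limma p-values set a difference against the spread within the 3 groups, and permutation p-values against regroupings of the 6 normal samples. The 3 samples of a normal group may share unrecorded handling, which neither kind of p-value covers. The DMRs named in the definition of the set, and any with 3 or more windows or within 2000 bp of a transcript start, were given per sample, and of the gene lists the 3 genes with the most DMRs per direction, ties by the larger absolute log2 ratio. Genes of promoter DMRs and those tied at a count were named after their values were seen. Of 77 listed genes, 76 were found, and Dchs2 was not. Adenoma and normal samples of the same animals, known from the labels, were paired: deviations from group means correlated by -0.05 to 0.03 in the 4 same-animal pairs and by -0.03 to 0.07 in the 11 others. Fragment counts are rpm times reads times region length over 300 bp and cover counting error only.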

Additional observations from a re-analysis of the deposited data

Results flagged for a closer look

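Ad4-1 stood apart from the other adenomas at Cdh4 +263 kb. Its 0.96 rpm lay 0.27 rpm above the next adenoma, 77.1% of the range of the 5 adenomas, and beyond Dixon's limit for 5 samples. Ad7 stood apart at Cdh13 +185 kb, where its 0.09 rpm was the lowest value by 84.2% of the range. Of 34 groups examined (5 adenomas and 6 normal samples at each DMR), these 2 were beyond the limit, about as many as chance gives at 1 in 20. The value of Ad7 rested on 2.08 fragments, and Ad7 had the fewest reads of all MeDIP libraries; their part in the result was not tested.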

How the results depend on the processing

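The direction of every member held in all 340 values from 20 alternatives for each of the 17 DMRs. The listing used the same contrast and samples, so a reversal was hardly possible and nothing is read from this count. The hypomethylated members ranged from -1.16 to -0.15 and the hypermethylated ones from 0.24 to 1.25 on the log2 scale, and 317 of the 340 values moved by less than the SD of the adenomas. The median log2 ratio in the listed direction, 0.62, was 0.29 with 0.5 rpm added, as a larger addition shrinks low values by construction, and 0.52 as a difference of medians. Leaving out samples gave 0.59 to 0.69. When N4 to N6 were paired with the adenomas of the same mice in a fit with a replicate block (7 samples), it was 0.71, and 0.67 for these samples without the block. Separation of the groups was complete in 12 DMRs, in 12 to 14 with a sample left out, and in 16 within library series 4. Leaving out samples cannot undo a separation, so neither of these alternatives could give fewer than 12. Series 4 holds only 2 adenomas and 3 normal samples, and nothing is read from its count. Separation was complete in 5 of the 6 DMRs whose larger group mean reached 0.5 rpm, a smaller set by construction. The 0 windows called between the normal tissues became 147 at an unadjusted p under 0.01, 1 of them a member, and stayed at 0 under every other alternative. The median APCMin normal minus B6 normal log2 difference of the members, 0.04, ranged from -0.056 without B2 to 0.045 without N4 when a normal sample was left out, and was -0.032 within library series 4; these alternatives were chosen after seeing the data. The member windows with an unadjusted p under 0.05, 4 in number, were 1 without B2, 2 without N5 or N6 and 3 or 4 under the other alternatives. Summed input of Ad7 over B3 was 1.14, against 0.841 over N4. Counting promoters alone left 1 family gene with a hypermethylated and 3 with a hypomethylated DMR. The test of RNA was not run. Depth limits the values of single samples below about 0.25 rpm.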

Other observations

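Among the 100 DMRs most like the Pcdh17 DMR in their sample to sample pattern, 10 lay on chromosome 14, which holds 3.99% of all DMRs. For the DMRs of Cdh1 and Cdh13 on chromosome 8 the counts were 7 and 6 of 100 against 5.77%, and for Cdh4 on chromosome 2 the count was 8 against 7.56%. Over the 558 DMRs of chromosome 14, the median by which a sample departed from its group lay between -0.04 (Ad4-1) and 0.04 (Ad6) on the log2 scale, close to the range of -0.02 to 0.05 over all DMRs.

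At the 5 hypermethylated members the mean input was 0.306 rpm in N4, 0.194 in Ad7 and 0.162 in B3, against 0.142, 0.137 and 0.181 rpm over all hypermethylated DMRs. At the 12 hypomethylated members it was 0.182, 0.179 and 0.161 rpm in the same order, against 0.158, 0.152 and 0.181 rpm. The coefficient of variation was higher in normal than in adenoma samples at 4 of the 5 hypermethylated members (71.6% of all hypermethylated DMRs), with 33.6% against 11.9% at Pcdh17. It was higher in adenoma samples at 10 of the 12 hypomethylated members (67.7% of all hypomethylated DMRs), with 34.6% against 9.87% at Cdh13 +185 kb. The group with the lower mean thus had the larger coefficient in most DMRs of either direction.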
